A study of Mus musculus with 7 samples.

Results

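Accessible chromatin was described at 10 genes of growth hormone, IGF and insulin signalling in mouse liver, Ghr, Insr, Igf1, Igfals, Igfbp1, Igfbp2, Stat5b, Irs1, Irs2 and Socs2. The members were listed by name, and each was given a window of its gene body and 20 kb to either side on the mouse genome mm9. All 10 genes were annotated, and their windows held 138 of the 94491 regions that the 3 nucleases marked over the whole genome. Livers came from male C57BL/6 mice, 8 weeks old, with no treatment named in the labels. Benzonase and Cyanase, endonucleases that work in detergent and reducing agents, were each used at 0.25, 1 and 4 U on pulverized frozen liver, with 1 library per amount. DNase I was used on nuclei purified from fresh liver. Tags were pooled per nuclease by the authors before hotspots were called, a hotspot being a stretch in which nuclease cuts cluster above background. Each nuclease therefore gave 1 list, which gives the bounds of hotspots but no tag count, so there is no spread between replicates and no test of a difference between nucleases was possible. The enzyme, the tissue preparation and the pooling changed together between DNase I and the other 2 lists and cannot be told apart. Nor can a hotspot tell many cells that are weakly open from few cells that are strongly open.

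Growth hormone binds its receptor on hepatocytes, and the kinase JAK2 then activates STAT5, which enters the nucleus and drives the liver's output of IGF1 and its carriers. Insulin acts through its receptor and the adaptors IRS1 and IRS2 on PI3 kinase and AKT, which keep FOXO factors out of the nucleus and so lower Igfbp1 and Irs2 transcription. The liver is the main source of circulating IGF1.

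The tissue label was checked on transcription start sites (TSSs) of protein-coding transcripts, as in the rest of the text. All 9 hepatocyte markers (such as Alb, Ttr and Hnf4a) had a TSS inside a hotspot of each list. Of 10 markers of other tissues, 1 had such a TSS, Gfap, in the Cyanase list alone. Of the 4 markers of other liver cells, Clec4f had a TSS in Cyanase and DNase I hotspots, Lrat in Benzonase and Cyanase hotspots, Krt19 in a Benzonase hotspot, and Stab2 in none.

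The windows held 105 of the 60910 Benzonase hotspots, 104 of the 57675 Cyanase hotspots and 125 of the 72286 DNase I hotspots. Hotspots that overlapped by at least 1 bp were merged into regions, and common regions were those with DNase I and at least 1 of the other enzymes. Common regions made up 88 of the 138 (63.8%, 95% Wilson interval 55.5 to 71.3), against 45.4% of all regions of the genome. DNase I unique regions made up 32 (23.2%, 16.9 to 30.9), against 28.3% of all regions. Benzonase-Cyanase unique regions made up 18 (13%, 8.41 to 19.7), against 26.3% of all regions. The members' windows thus held a larger share of common regions and a smaller share of Benzonase-Cyanase unique regions than the genome, as a description of these lists. The genome's regions include those far from any gene. Against the bodies and flanks of all genes, given below, the difference in common share was smaller. With an overlap of 50% asked of both hotspots, the common share was 48.78% against 37.2% and the Benzonase-Cyanase unique share 23.78% against 31.3%. The intervals cover counting error only, and the tags behind a hotspot are unknown.

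Hotspots of all 3 nucleases met in 80 of the common regions, Benzonase and DNase I alone in 5, and Cyanase and DNase I alone in 3. Among the Benzonase-Cyanase unique regions, 9 held both enzymes, 5 Benzonase alone and 4 Cyanase alone. Benzonase and DNase I were both present in 85 of the 88 common regions, and in 41068 of 42941 over the genome. The finer patterns were not counted over the genome, so these counts describe the windows alone. The number of regions ran from 7 at Igfbp2 to 23 at Ghr, and per 100 kb from 7.52 at Ghr to 19.09 at Stat5b. The median over the windows of 22365 genes with protein-coding transcripts was 5.45 per 100 kb, with quartiles of 2.38 and 9.76, so that each member but Ghr lay above the upper quartile.

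**Figure D1:**
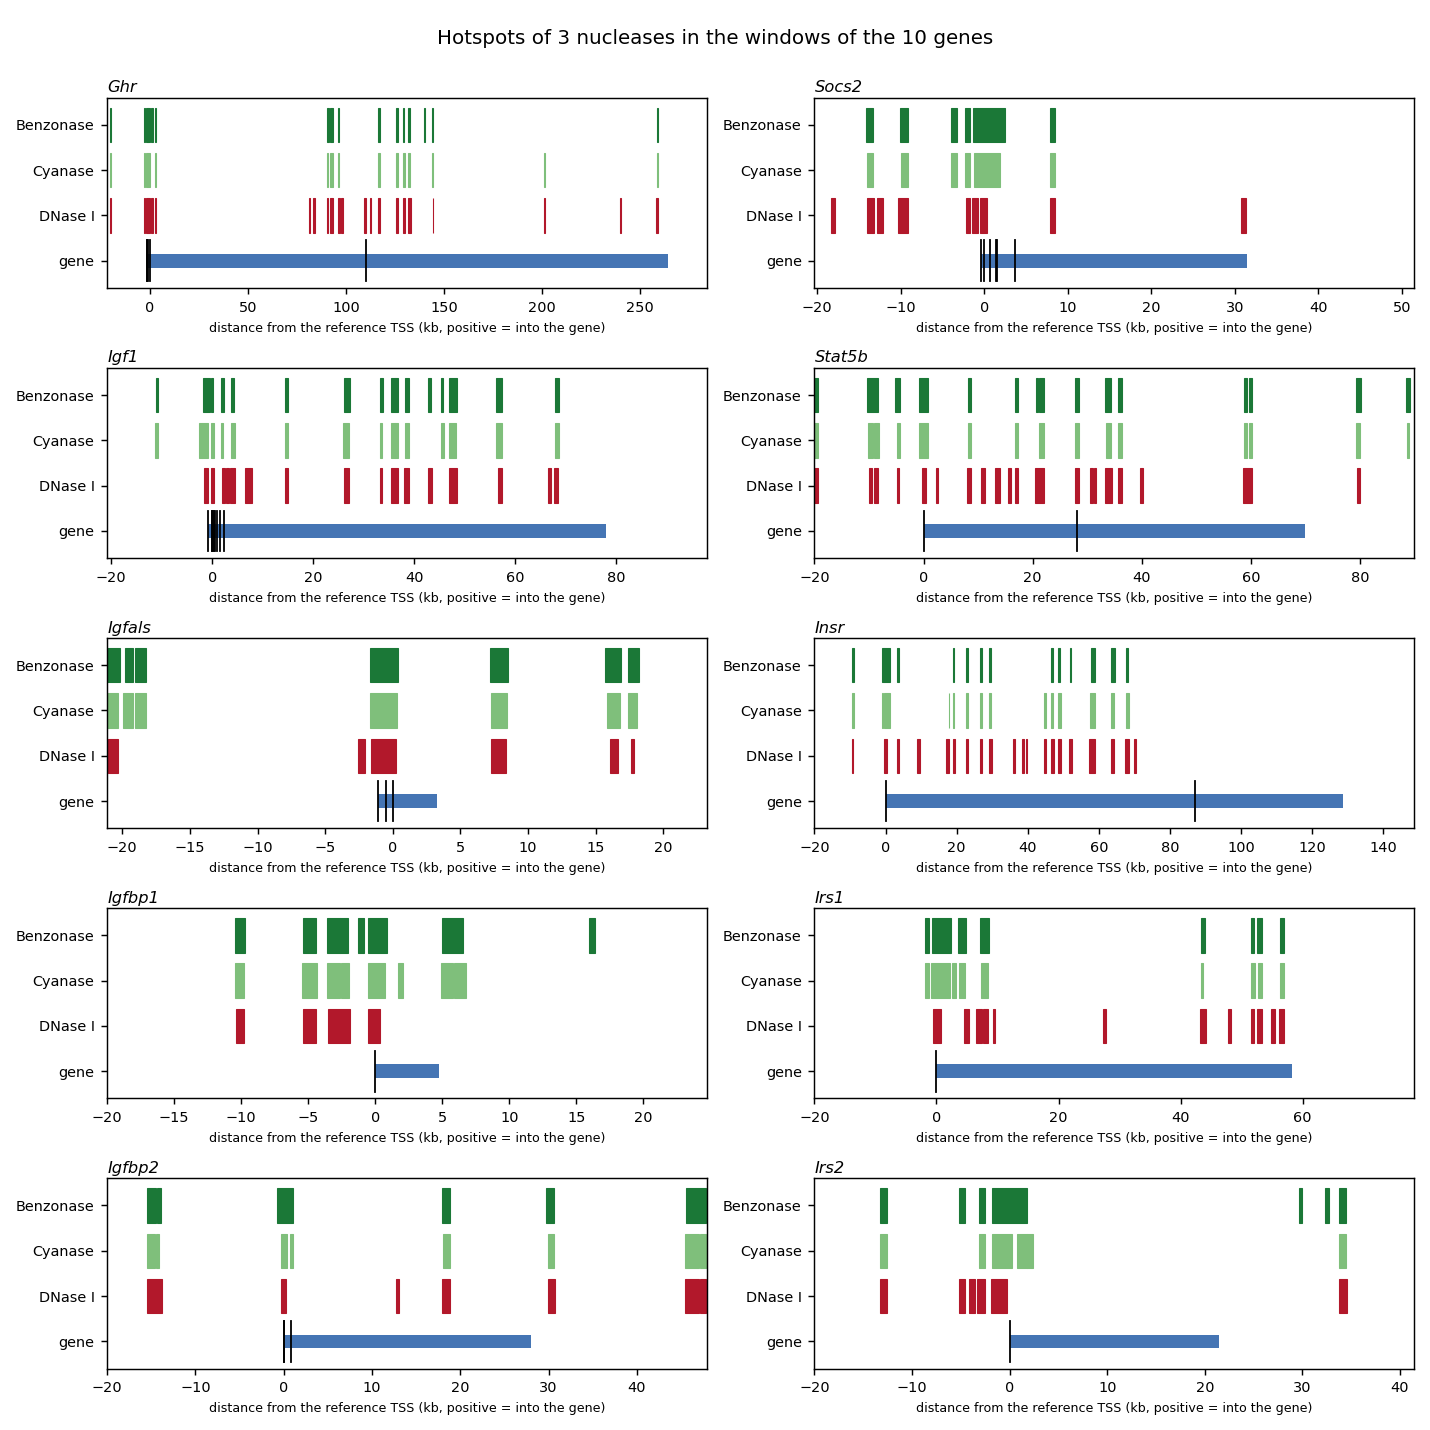
Hotspots of Benzonase, Cyanase and DNase I (one track each) across the windows of the 10 genes, against the distance in kb from the reference TSS, positive into the gene. Blue bars are gene bodies and black ticks are TSSs. The Ghr window, with 23 regions, has a long stretch of intron 1 without a hotspot, and Insr has none in its 3′ part.

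**Figure D2:**
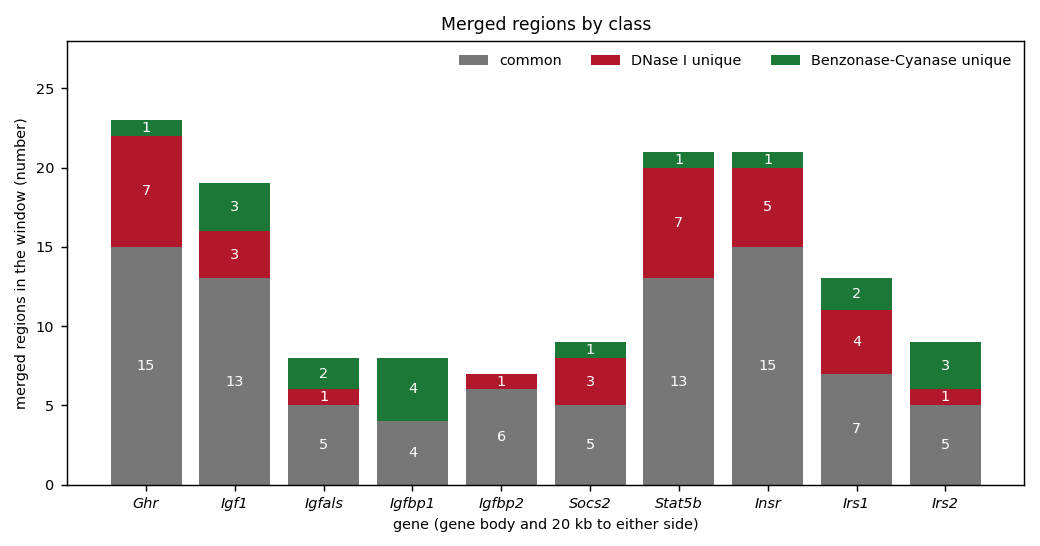
Number of merged regions in each window (y axis) for the 10 genes (x axis), stacked by class. Grey is common, red DNase I unique and green Benzonase-Cyanase unique. Ghr and Stat5b held 7 DNase I unique regions each, and Igfbp1 held 0 of these and 4 Benzonase-Cyanase unique regions.

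The classes lay in different places. Within gene bodies, 28 of 95 regions (29.5%, 21.2 to 39.3) were DNase I unique and 5 (5.26%, 2.27 to 11.7) were Benzonase-Cyanase unique. Over the bodies of all genes the shares were 24.1% and 23.6%, with a region counted once for each gene it lay in. Common regions made up 65.3% (55.3 to 74.1) in the members' bodies, against 52.3% in the bodies of all genes. In the members' flanks they made up 60.5%, with an interval (45.6 to 73.6) that held the 53.6% of all genes' flanks. In the flanks of the members, 4 of 43 regions (9.3%, 3.68 to 21.6) were DNase I unique and 13 (30.2%, 18.6 to 45.1) were Benzonase-Cyanase unique, against 22.2% and 24.2% in the flanks of all genes. The 5 Benzonase-Cyanase unique regions inside gene bodies were in Ghr intron 2, Igf1 intron 2, Igfbp1 exon 2 and the intron before it, and exon 1 of Irs1 and of Irs2.

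Base composition, which played no part in choosing the genes, followed the same order as in the genome. Mean GC content was 42.1% ± 4.51 (SD over 32 regions) in DNase I unique regions, 47.6% ± 6.98 (88 regions) in common regions and 53.8% ± 7.26 (18 regions) in Benzonase-Cyanase unique regions. Over all regions the means were 42.3%, 49.5% and 54.7%. DNase I unique regions reached at most 50.6% GC, in Stat5b intron 1, and the Benzonase-Cyanase unique regions began at 43.5%, in Ghr intron 2. A CpG island (a CpG-rich stretch with a minimum length of 200 bp, a GC content above 50% and over 0.6 of the CpG its bases would give) was overlapped by 0 of 32 DNase I unique, 13 of 88 common and 3 of 18 Benzonase-Cyanase unique regions. The member shares of 0%, 14.8% and 16.7% stood against 0.131%, 21.7% and 13.5% of the same classes in the genome, and 13.4% of all regions. Members of a class share enzymes and libraries, so these values describe the lists.

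**Figure D3:**
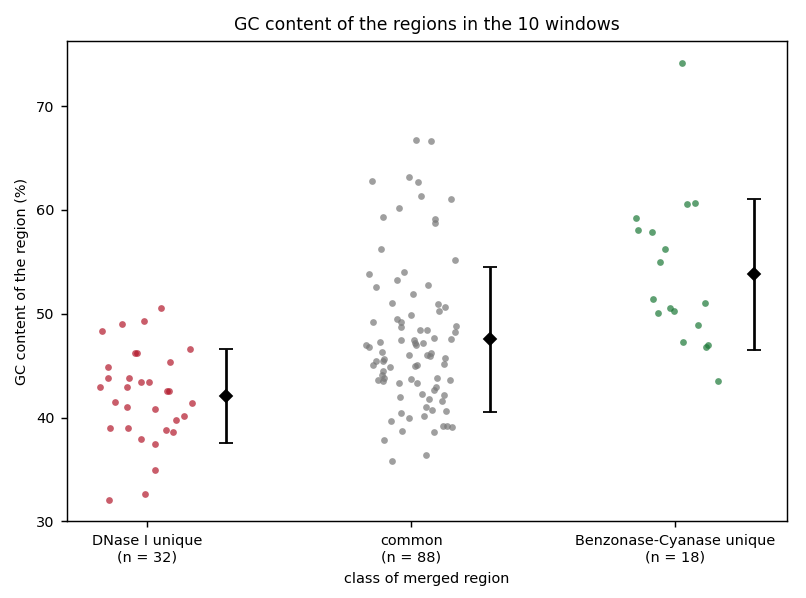
GC content in percent (y axis) of each of the 138 regions by class (x axis), with the mean and SD over regions as a diamond and bar. The means rise from 42.1% in DNase I unique through 47.6% in common to 53.8% in Benzonase-Cyanase unique regions, and the classes overlap.

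Each of the 10 genes had a TSS inside a Benzonase and a Cyanase hotspot, and 9 had one inside a DNase I hotspot. Over 22365 genes the shares were 57.4% for Benzonase, 55.7% for Cyanase and 47.4% for DNase I. Irs2 was the member with a TSS in Benzonase and Cyanase hotspots and none in a DNase I hotspot, a pattern of 11.8% of all genes. The converse pattern, 0.867% of all genes, was found at no member when a gene was scored by any of its TSSs. Of the 33 separate TSSs, 25 lay in a Benzonase, 24 in a Cyanase and 19 in a DNase I hotspot. No share over the single TSSs of all genes was computed to set beside these counts. Several TSSs of a gene could share a hotspot, as at Socs2.

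The receptors came first in the pathway. Ghr encodes the growth hormone receptor and lies on the minus strand at chr15:3267760-3533492 (ENSMUSG00000055737.6), with several alternative first exons. Of its 23 regions, 15 were common, 7 DNase I unique and 1 Benzonase-Cyanase unique. The main start region, chr15:3531635-3533888, held 4 of its TSSs and a CpG island of 524 bp that lay wholly inside hotspots of each list. Cyanase marked it as 1 hotspot of 2187 bp, while Benzonase split it in hotspots of 1026 and 1080 bp and DNase I in hotspots of 667 and 1018 bp. The TSSs of Ghr-009 and Ghr-001 flanked the DNase I hotspot of 667 bp, 62 bp from its upstream end and 26 bp from its other end, whereas both lay inside Benzonase and Cyanase hotspots.

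Farther into Ghr, the TSS of the transcript Ghr-010 lay in a DNase I unique region of 512 bp, chr15:3421415-3421926, in intron 1 of Ghr-001. The nearest Benzonase hotspot was 6226 bp away and the nearest Cyanase hotspot 6224 bp away. It was the only TSS of the 10 genes inside a DNase I hotspot and outside hotspots of both other lists. Its upstream sequence is shown (mm9, chr15:3421645-3421894, minus strand, the 250 bases before the TSS). It was the most AT-rich of the stretches shown, with 38.8% GC and 0 CpG, so that no letters are in capitals. Other regions of Ghr had a lower GC content.
Ghr-010 upstream: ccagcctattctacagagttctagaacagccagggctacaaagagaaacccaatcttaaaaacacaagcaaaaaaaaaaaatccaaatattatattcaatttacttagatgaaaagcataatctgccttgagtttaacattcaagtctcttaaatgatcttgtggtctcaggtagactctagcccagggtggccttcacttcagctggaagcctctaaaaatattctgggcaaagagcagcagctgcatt

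Of the 7 DNase I unique regions of Ghr, 6 were in intron 1 and 1 in intron 5, with GC contents of 32.1% to 49.0% and lengths of 396 to 658 bp. Common regions lay beside them in introns 1 and 2, such as chr15:3438390-3439778, with 1097 bp covered by Benzonase, 1209 bp by Cyanase and 1389 bp by DNase I. No list had a hotspot between the region that ended at chr15:3450604 and the one that began at chr15:3528383. Benzonase alone marked chr15:3391451-3392038 in intron 2.

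Insr, on the minus strand at chr8:3150922-3279617 (ENSMUSG00000005534.8), encodes the insulin receptor and had 21 regions, of which 15 were common, 5 DNase I unique and 1 Benzonase-Cyanase unique. At its start, the Benzonase hotspot chr8:3278260-3280123 and the Cyanase hotspot chr8:3278271-3280126 were almost the same in bounds, with 1864 and 1856 bp. The DNase I hotspot, chr8:3279246-3279992, was 747 bp wide and ended 371 bp inside the gene, against 1357 bp for Benzonase. Directly upstream, chr8:3280187-3280660 held Benzonase and Cyanase hotspots of 418 and 459 bp and no DNase I hotspot.

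The other 19 regions of Insr comprised 18 in introns 1 to 3, of which 1 spanned exon 3, and 1 upstream at chr8:3288458-3289082. All 5 of its DNase I unique regions were intronic, at 39.0% to 49.3% GC. DNase I was joined by only 1 of the other enzymes in 4 intronic regions, 2 with Benzonase and 2 with Cyanase. None of the lists had a hotspot 3′ of chr8:3209188, which leaves the later introns and the TSS of a short transcript at chr8:3192717 unmarked, 16471 bp from the nearest DNase I hotspot.

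Igf1 encodes the IGF1 hormone and lies on the plus strand at chr10:87321010-87399792 (ENSMUSG00000020053.11). It had 16 hotspots in each list and 19 regions, of which 13 were common, 3 DNase I unique and 3 Benzonase-Cyanase unique. Its 9 TSSs fell in 3 separate regions or outside hotspots. The region around the TSS of Igf1-001 had 436 bp covered by Benzonase, 554 bp by Cyanase and 673 bp by DNase I, the widest mark being that of DNase I. Just upstream, chr10:87319836-87321409 went the other way, with 1499 bp by Benzonase, 1054 bp by Cyanase and 772 bp by DNase I, and the TSS of Igf1-005 was inside the Benzonase hotspot alone. Neither region overlapped a CpG island, and the TSSs of Igf1-002, Igf1-006, Igf1-007 and Igf1-008 lay in no hotspot.

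Igf1 intron 2 held 9 regions. All 3 nucleases marked 6 of them, the widest being chr10:87368636-87370252 with 1530 bp by Benzonase, 1457 bp by Cyanase and 1607 bp by DNase I, of which 1457 bp were covered by every list. A DNase I unique region of 1375 bp, chr10:87328352-87329726 (42.6% GC), was the longest of its class in the 10 windows. A Benzonase-Cyanase unique region, chr10:87367057-87367615 (51.0% GC), had 503 and 452 bp. The bounds of chr10:87364505-87365218 were set by DNase I (714 bp), with a Benzonase hotspot of 615 bp and no Cyanase hotspot.

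STAT5 binds the letters TTCNNNGAA, which read the same on both strands, and FOXO proteins bind forkhead letters (TGTTTAC) and the insulin response core (CAAAACA). Letters of STAT5 were found in the central 300 bp of 19 of the 138 regions (13.8%, 8.99 to 20.5), against 9.18% of all regions. Forkhead letters were in 11 regions (7.97%, 4.51 to 13.7, against 6.6%) and insulin response letters in 13 (9.42%, 5.59 to 15.5, against 8.67%), both strands searched. The interval held the genome's share for each of the 3. The C/EBP letters TTGCGCAA were in 0 of 138 regions (upper limit of the interval 2.71%), against 0.176%. With letters this rare, 0 of 138 does not show that C/EBP sites were absent. Igf1 held 5 of the regions with STAT5 letters, all of them common and in introns 1 and 2, and Socs2 held 4 of its 9. Igfbp1 and Irs2 had 0. A match is a string of letters and not a measured binding site.

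2 of these regions are shown for their STAT5 letters, in capitals. The Igf1 one is the intron 2 region marked by Benzonase and DNase I (mm9, chr10:87364712-87365011, plus strand, its central 300 bases), with 2 matches. The Socs2 one is the outermost upstream DNase I unique region (mm9, chr10:94897462-94897761, minus strand), with 1 match.
Igf1 intron 2: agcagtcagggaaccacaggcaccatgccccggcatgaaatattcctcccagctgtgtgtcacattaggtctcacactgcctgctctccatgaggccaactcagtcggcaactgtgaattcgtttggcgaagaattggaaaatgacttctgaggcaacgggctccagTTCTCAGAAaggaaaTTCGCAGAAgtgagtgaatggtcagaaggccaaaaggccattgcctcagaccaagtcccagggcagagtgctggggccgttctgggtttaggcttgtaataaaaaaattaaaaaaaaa
Socs2 upstream: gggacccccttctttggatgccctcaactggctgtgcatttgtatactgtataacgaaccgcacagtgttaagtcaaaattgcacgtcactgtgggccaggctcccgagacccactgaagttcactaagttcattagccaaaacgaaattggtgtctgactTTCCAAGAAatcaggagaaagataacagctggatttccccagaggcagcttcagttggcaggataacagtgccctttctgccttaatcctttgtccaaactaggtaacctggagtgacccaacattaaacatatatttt

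Igfals encodes the acid-labile subunit, which holds circulating IGF1 in a ternary complex, and lies at chr17:25014600-25018955 on the plus strand (ENSMUSG00000046070.7). Its 3 TSSs lay in 1 region with nearly the same bounds in each list, 2094 bp for Benzonase, 2011 bp for Cyanase and 1877 bp for DNase I. All 1877 bp of the DNase I hotspot were covered by the other 2. This was the widest DNase I hotspot in the 10 windows, in a region of 58.7% GC without a CpG island. Of its 8 regions, 5 were common, 1 DNase I unique (554 bp, 1.18 kb upstream) and 2 Benzonase-Cyanase unique. Downstream, 3 common regions with CpG islands lay at the TSSs of the neighbours Nubp2 and Spsb3, Eme2 and Mrps34, and Nme3. At Nme3 Benzonase covered 845 bp, Cyanase 690 bp and DNase I 255 bp.

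Igfbp1, at chr11:7097785-7102549 on the plus strand (ENSMUSG00000020429.7), encodes an IGF-binding protein that insulin represses in the liver. It was the only member with 0 DNase I unique regions, and 4 of its 8 regions were Benzonase-Cyanase unique. At its start the upstream bounds of the 3 hotspots lay within 33 bp of each other, at 7097214 for Benzonase, 7097223 for Cyanase and 7097247 for DNase I. Into the gene they parted, reaching 844 bp past the TSS for Benzonase, 720 bp for Cyanase and 324 bp for DNase I. Common regions followed upstream at 2.77, 4.90 and 10.1 kb from the TSS. At 2.77 kb, DNase I gave 1 hotspot of 1644 bp where Benzonase gave hotspots of 992 and 593 bp and Cyanase of 1002 and 590 bp.

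The start of Igfbp1 is shown because the insulin response core lies in it (mm9, chr11:7097535-7097784, plus strand, the 250 bases before the TSS). All of these bases were inside hotspots of the 3 lists. The core CAAAACA, in capitals, occurred 1 time, and the STAT5, forkhead and C/EBP letters 0 times. This core lies outside the central 300 bp of its region, so the count of insulin response letters given above does not include it.
Igfbp1 upstream: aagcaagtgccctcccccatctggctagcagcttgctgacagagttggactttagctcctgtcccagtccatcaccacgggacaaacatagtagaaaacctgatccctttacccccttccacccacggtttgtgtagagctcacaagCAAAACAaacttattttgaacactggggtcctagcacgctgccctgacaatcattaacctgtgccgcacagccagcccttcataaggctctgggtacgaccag

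Downstream of Igfbp1 the marks came from Benzonase and Cyanase. The region chr11:7102699-7104547, past the 3′ end of the gene, held a Benzonase hotspot of 1615 bp and Cyanase hotspots of 849 and 905 bp and no DNase I hotspot. It was the longest Benzonase-Cyanase unique region in the 10 windows. Farther on, the TSS of Igfbp3, the main carrier of IGF1 in blood, lay in a Benzonase hotspot of 453 bp (74.2% GC), and its CpG island of 776 bp had 0 bp in Cyanase or DNase I hotspots.

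Igfbp2, another IGF-binding protein made by the liver, lies at chr1:72871077-72899048 on the plus strand (ENSMUSG00000039323.11). Of its 7 regions, 6 held all 3 nucleases and 1, in intron 1, was a DNase I unique region of 272 bp. Its start showed the largest ratio of Benzonase to DNase I length among the start regions of the 10 genes (2.97), with 1898 bp covered by Benzonase, 1159 bp by Cyanase in hotspots of 787 and 372 bp, and 638 bp by DNase I. Downstream, chr1:72916570-72918939 had 2294 bp covered by 1 Benzonase hotspot, 2260 bp by 2 Cyanase hotspots and 2242 bp by 2 DNase I hotspots.

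Stat5b encodes the STAT5 protein that carries much of the growth hormone signal in male liver, and lies on the minus strand at chr11:100642045-100712038 (ENSMUSG00000020919.5). It had the densest window, with 21 regions, of which 13 were common, 7 DNase I unique and 1 Benzonase-Cyanase unique. All 7 DNase I unique regions were in intron 1, 449 to 763 bp long and 38.8% to 50.6% GC, among common regions of the same intron. At the first TSS, Benzonase covered 1615 bp, Cyanase 1622 bp and DNase I 706 bp. The TSS of Stat5b-002, in intron 1 and without a CpG island, had 636, 613 and 762 bp. Upstream, 2 common regions held TSSs of the neighbour Stat5a, which encodes the close relative of STAT5B. Downstream, the common region chr11:100631912-100632786 held a TSS of the neighbour Ghdc. The Benzonase-Cyanase unique region lay downstream over a CpG island of 353 bp, with 614 bp by Benzonase and 320 bp by Cyanase.

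Irs1, at chr1:82229676-82287991 on the minus strand (ENSMUSG00000055980.2), encodes an adaptor of the insulin and IGF1 receptors, most of it in a long exon 1. The start region had 3149 bp covered by Benzonase, 3073 bp by Cyanase and 1340 bp by DNase I. Benzonase and Cyanase reached 2352 and 2235 bp into exon 1, and DNase I 782 bp. Cyanase alone marked a further 611 bp of exon 1 at chr1:82284817-82285427. Where exon 1 meets intron 1, chr1:82282661-82284518 counted as common although only 133 bp were covered by every list, since the DNase I hotspot lay mostly in the intron and those of Benzonase and Cyanase mostly in the exon. Of the 4 DNase I unique regions of Irs1, 3 were in intron 1 and 1 in exon 2.

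Upstream of Irs1, chr1:82289255-82289900 was Benzonase-Cyanase unique, with hotspots of 641 and 631 bp. Its central 250 bases (mm9, chr1:82289453-82289702, plus strand) are shown as a region open to both of these enzymes and not listed for DNase I. They held 58.4% GC and 7 CpG, in capitals.
Irs1 upstream: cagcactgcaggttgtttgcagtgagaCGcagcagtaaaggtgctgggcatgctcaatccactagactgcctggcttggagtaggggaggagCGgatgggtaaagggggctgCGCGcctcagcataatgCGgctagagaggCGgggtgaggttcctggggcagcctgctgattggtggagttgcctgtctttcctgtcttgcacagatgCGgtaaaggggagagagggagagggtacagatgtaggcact

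Irs2, the adaptor whose transcription insulin lowers in the liver, lies on the minus strand at chr8:10986980-11008458 (ENSMUSG00000038894.6). Its start region spanned a CpG island of 2915 bp, of which Benzonase hotspots covered 100%, Cyanase hotspots 83.2% and DNase I hotspots 40%. Benzonase gave 1 hotspot of 3544 bp, Cyanase hotspots of 1000 and 2063 bp, and DNase I 1 of 1657 bp. The DNase I hotspot ended 247 bp upstream of the TSS, while the Benzonase hotspot ran 1763 bp into the gene. The 246 bases between the TSS and the DNase I hotspot are shown (mm9, chr8:11008459-11008704, minus strand), with CpG in capitals. They held 82.5% GC and 41 CpG, lay wholly in the Benzonase and Cyanase hotspots, and were the most GC-rich of the 6 stretches shown.
Irs2 start: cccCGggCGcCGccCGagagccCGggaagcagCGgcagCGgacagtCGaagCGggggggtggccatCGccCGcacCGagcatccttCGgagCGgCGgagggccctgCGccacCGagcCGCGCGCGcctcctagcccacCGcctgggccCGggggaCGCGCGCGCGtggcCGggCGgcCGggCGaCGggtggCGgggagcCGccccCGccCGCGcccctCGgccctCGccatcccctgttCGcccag

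Elsewhere at Irs2, 3 further regions were marked by 1 enzyme alone, 593 bp of exon 1 by Cyanase and 454 and 305 bp downstream by Benzonase, at 56.2% to 60.7% GC. Upstream, 2 regions held all 3 nucleases, 1 held Benzonase and DNase I, and 1 of 666 bp (43.8% GC) was DNase I unique.

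Socs2 encodes an inhibitor of growth hormone signalling that STAT5 itself induces, and lies on the minus strand at chr10:94847996-94879814 (ENSMUSG00000020027.11). Its start held the widest Benzonase hotspot of the 10 windows, 3786 bp, with 3063 bp by Cyanase and 1585 bp by DNase I in hotspots of 826 and 759 bp. A CpG island of 2709 bp covers this start, and 100% of it lay in Benzonase, 76.6% in Cyanase and 20% in DNase I hotspots. The TSSs of Socs2-012 and Socs2-001 were inside hotspots of each list, and those of Socs2-005, Socs2-007 and Socs2-008, deeper in the island, were 343, 1071 and 1272 bp from DNase I. Of its 9 regions, 5 were common, 3 DNase I unique and 1 Benzonase-Cyanase unique. Upstream these classes lay next to each other, with common regions at 9.43 and 13.3 kb, a Benzonase-Cyanase unique region at 3.29 kb and DNase I unique regions at 12.1 and 17.8 kb.

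**Figure D4:**
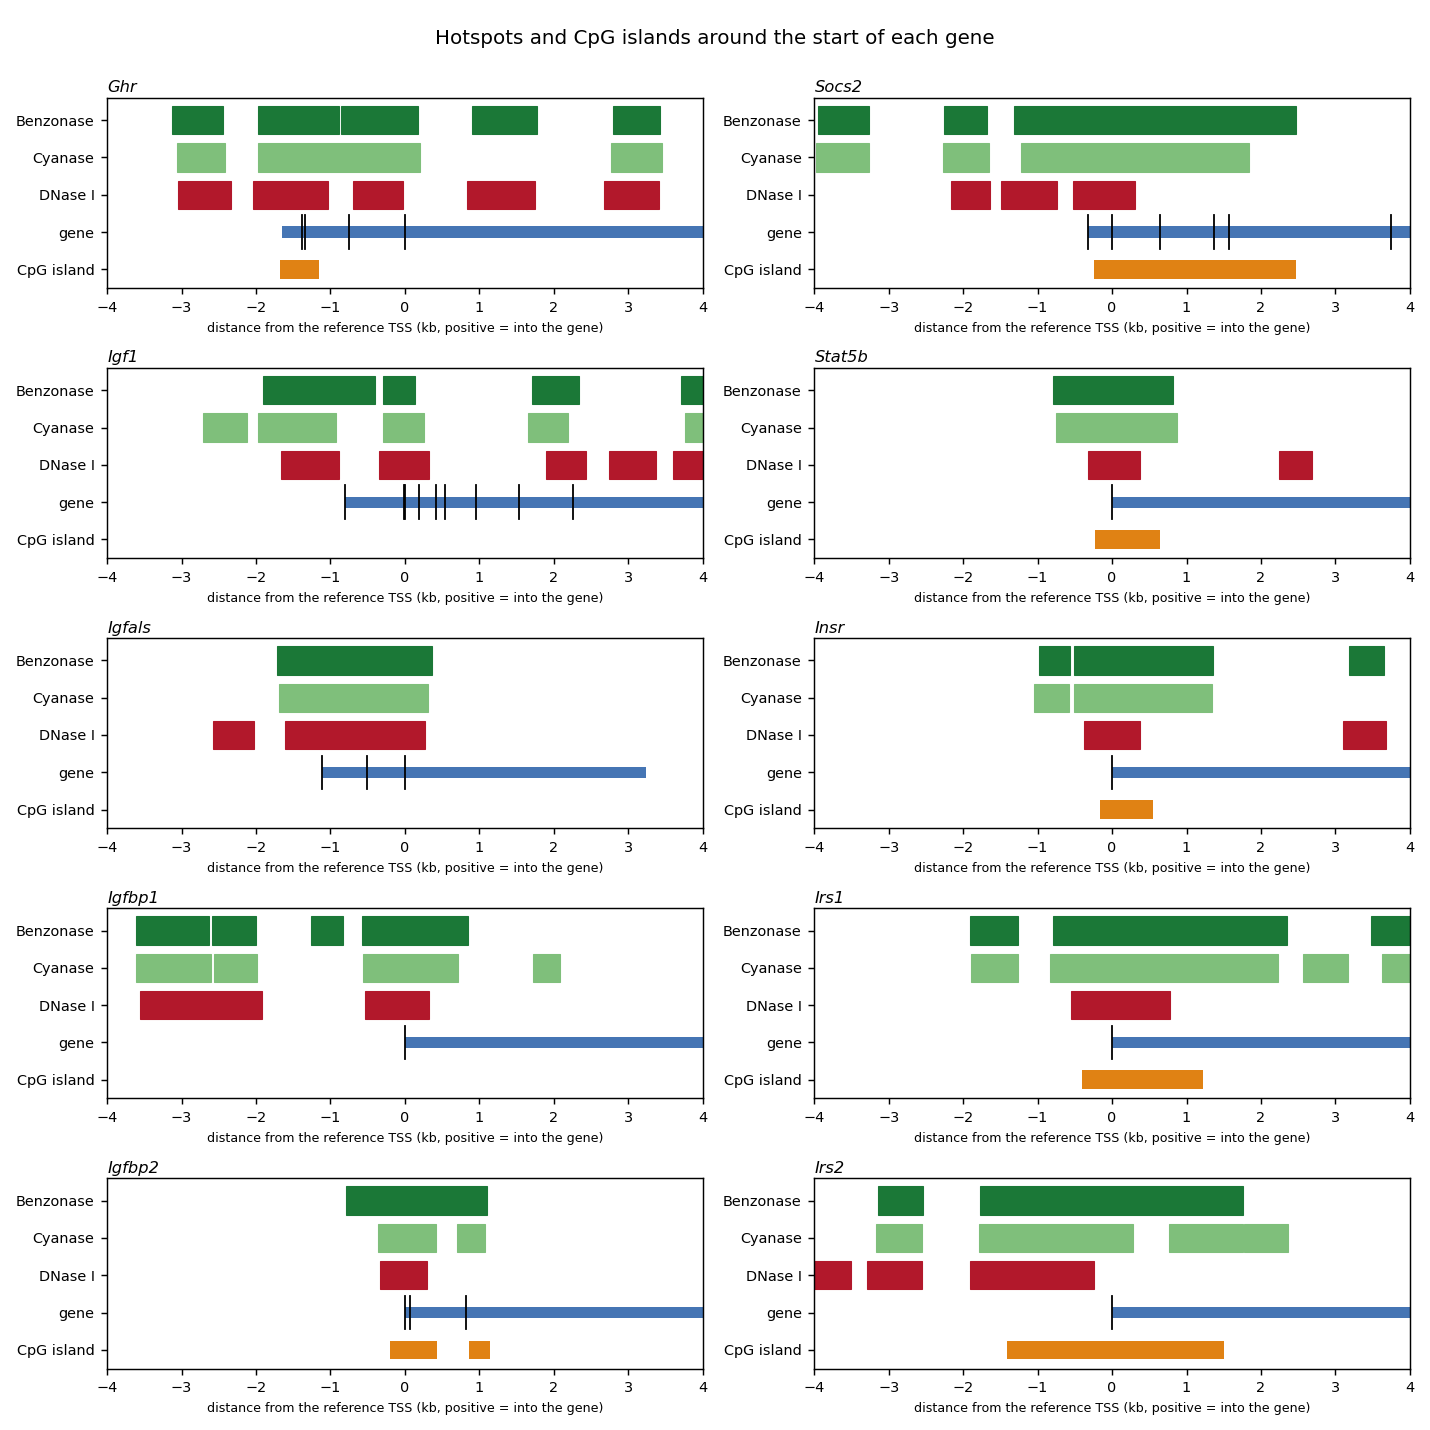
Hotspots of the 3 nucleases and CpG islands within 4 kb of the reference TSS of each gene (x axis in kb, positive into the gene), with gene bodies in blue, TSSs as ticks and islands in orange. In the region at the reference TSS of Socs2, Insr, Irs1 and Irs2, Benzonase and Cyanase hotspots reach 1346 to 2471 bp into the gene. Those of DNase I end at 782 bp or before. The Cyanase mark at Irs2 is made of separate hotspots with a gap between them.

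The start regions of the members were then compared by how far the hotspots reached from the reference TSS. Reach ran to the outermost bound of a list's hotspots in the merged region at that TSS, across any gap between them. Benzonase reached farther into the gene than DNase I at 9 of 10 members, by a median of 660 bp, Igf1 being the exception with 139 bp against 324 bp. On the upstream side Benzonase reached farther at 6 of 10, by a median of 76 bp. At Ghr, Igf1, Igfals and Socs2 other TSSs of the gene lay upstream of the reference TSS. The upstream reach there was thus partly or wholly within the gene, and no other reference TSS was tried. Among 10351 genes with both enzymes in the region at their reference TSS, the shares were 81.7% into the gene and 68.7% upstream, with medians of 190 and 51 bp. The members' direction was thus that of most genes. At the 7 members with a CpG island in this region the difference into the gene was 199 bp at Ghr, 442 bp at Stat5b, 800 bp at Igfbp2, 986 bp at Insr, 1570 bp at Irs1, 2010 bp at Irs2 and 2169 bp at Socs2. The median of these was 986 bp, and that of all genes with an island 218 bp. DNase I in turn reached farther upstream at Igf1, with 348 bp against 296 bp, and at Ghr, with 2046 bp against 1968 bp. It also did so at Socs2, with 1495 bp against 1314 bp, and at Irs2, with 1903 bp against 1780 bp. At Igf1 the Benzonase hotspot of 1499 bp just upstream fell in another region and was not counted, so this order depends on the merging. The DNase I bounds at Ghr and Socs2 came from the farther upstream of their hotspots.

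Length was then compared over all 85 regions with Benzonase and DNase I hotspots. Benzonase covered more bp than DNase I in 11 of 13 regions with a CpG island (84.6%, 57.8 to 95.7), at a median ratio of 2.14, against 88.4% of such regions in the genome. Without an island it did so in 25 of 72 (34.7%, 24.8 to 46.2), at a median ratio of 0.95, against 40.2%. The 2 exceptions with an island were both intronic, in Insr intron 2 and Irs1 intron 1. The order of the enzymes thus changed with the island, as it did over the genome, and was not particular to these genes. At the members' own TSSs the ratio was 1.25 to 2.97 in the 7 regions with an island and 0.65 to 1.94 in the 6 without one that held both enzymes.

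**Figure D5:**
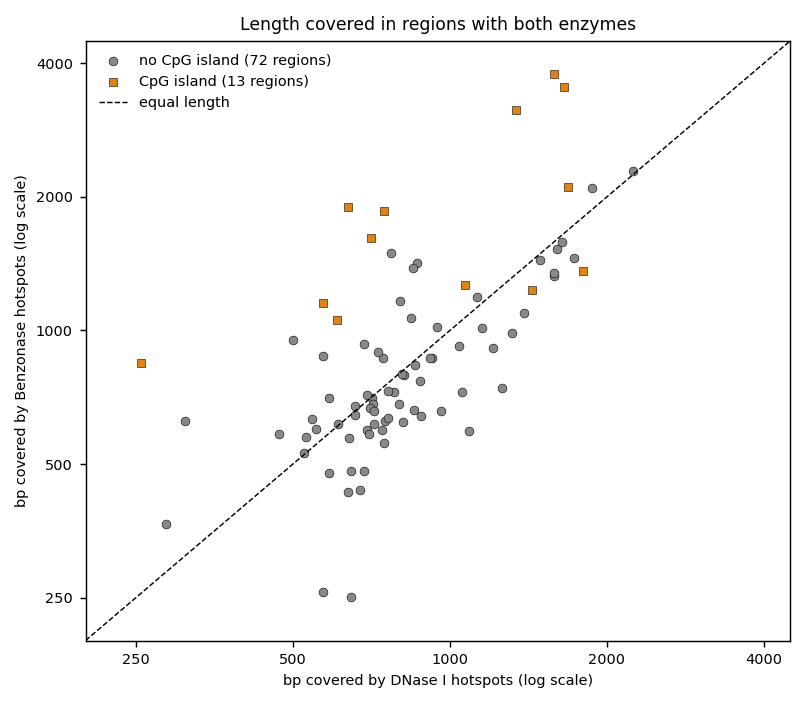
Bp covered by Benzonase hotspots (y axis, log scale) against bp covered by DNase I hotspots (x axis, log scale) in the 85 regions with both, with the dashed line at equal length. Orange squares are the 13 regions with a CpG island, 11 of them above the line, and grey circles the 72 without, of which 25 are above it.

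Hotspot widths differed little at the median. It was 703 bp (quartiles 596 and 1012) for Benzonase, 676.5 bp (592 and 938) for Cyanase and 700 bp (600 and 852) for DNase I, against 652, 641 and 649 bp over the whole lists. The longest hotspots were 3786, 3073 and 1877 bp. In 68 regions with exactly 1 hotspot of each list, Benzonase and Cyanase bounds differed by a median of 40 bp, Benzonase and DNase I by 85 bp and Cyanase and DNase I by 81 bp. The pair from frozen tissue was thus closest in its bounds, as it was over 33922 such regions of the genome, where the medians were 33, 71 and 70 bp. In the 7 of the 68 regions with a CpG island, Benzonase and DNase I bounds differed by a median of 269 bp, against 151 bp in 7344 such regions of the genome.

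CpG islands in the windows numbered 18, with 14843 bp in all. Benzonase hotspots touched 17 of them and covered 95.4% of their bases, Cyanase hotspots touched 15 and covered 82.3%, and DNase I hotspots touched 13 and covered 51.5%. Over all 23754 islands of the genome, Benzonase hotspots touched 51.7% and covered 58.4% of the bases, Cyanase hotspots 49.4% and 55%, and DNase I hotspots 39% and 35.1%. DNase I had the lowest coverage in the windows and in the genome. The islands at the starts of Irs1, Insr and Stat5b were covered by DNase I to 73.1%, 75.3% and 70.3%, against 20% at Socs2 and 100% at Ghr. The start region of Igfbp2 held 2 islands, 1 of 631 bp covered by DNase I to 79.2% and 1 of 291 bp covered to 0%, the latter to 83.8% by Benzonase and to 73.5% by Cyanase. 1 island of 217 bp, in the Igfals window, was in no hotspot.

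A list of 58 other genes of these pathways was read the same way. A TSS lay in a Benzonase hotspot at 51, in a Cyanase hotspot at 49 and in a DNase I hotspot at 39 of them, against the 57.4%, 55.7% and 47.4% of all genes given above. All 3 lists marked 39, among them Jak2, the kinase of the receptor, and Cish, Socs1 and Socs3, relatives of Socs2, as well as Akt2 and Foxo1. No list marked 7, namely the hormone genes Gh, Ins1 and Ins2, the receptor Igf1r, the binding proteins Igfbp5 and Igfbp6, and the protease Pappa. The remaining 12 had a TSS in Benzonase or Cyanase hotspots and none in DNase I hotspots, as Irs2 and 11.8% of all genes did. They were Igfbp3, Irs4, Igfbp7, Stc2, Irs3, Grb10, Pik3ca, Inpp5d, Akt1, Tsc2, Rictor and Cux2, with Igfbp3 and Irs4 marked by Benzonase alone. Of these 12 genes, 10 had a TSS in a CpG island, as had 36 of the 39 genes marked by all 3 lists and 1 of the 7 marked by none. Among all genes the shares with a TSS in an island were 72.6%, 80% and 11.3% in these groups. DNase I alone marked 0 of the 58, against 0.867% of all genes.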

How the data were processed

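The members and the gene lists were chosen with earlier results of these data known. Tags were aligned to mm9 by the authors with Eland or Bowtie, pooled per nuclease (3 Benzonase, 3 Cyanase; the DNase I list pools replicates, of which the labels list 1) and used to call hotspots at a false discovery rate of 0%. The deposited lists hold chromosome, start and end of each hotspot in bp, with no count, score or density, so depth per hotspot is unknown. The authors also name a tag density threshold at the mode. Each deposited list holds more hotspots than the paper gives for that nuclease. There were 0 columns of other samples.

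Starts were read as 0-based and are printed from 1. Hotspots overlapping by at least 1 bp were merged. Genes and TSSs were those of protein-coding transcripts in GENCODE release M1 on NCBIM37 (mm9), and a gene was scored when any of its TSSs lay in a hotspot. The reference transcript was the first coding one by name. CpG islands were maximal-scoring segments (17 for a CpG, -1 for any other base), without repeat masking. Shares carry 95% Wilson intervals, and no test was run, since each nuclease has 1 pooled list. All 10 members were named, with the coding neighbours whose TSSs lay in a region of a window, and pathway genes where the lists differed. 2 pathway genes of the list as first drawn up are not reported here and enter no count of it. The genes marked by no list and examples marked by all 3 were named after their values were seen. The merging and the islands were tested on simulated data. Alternatives covered the window, the overlap, narrow hotspots, TSS definitions and the stretch used for GC content. Python 3.11.15, numpy 2.4.6, scipy 1.17.1, numba 0.67.0 and matplotlib 3.10.9 were used.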

Additional observations from a re-analysis of the deposited data

How the results depend on the processing

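No paired analysis was possible because each nuclease has 1 pooled list. With the gene body alone, Benzonase and Cyanase hotspots fell to 65 each, and the share of Benzonase-Cyanase unique regions to 5.263%. Where sharing needed 50% of both hotspots, the share of common regions was 48.78%, that of Benzonase-Cyanase unique regions 23.78%, and the mean GC content of DNase I unique regions 45.95%. Under that rule the genome had 37.2% and 31.3%, so the members kept their side of the genome's shares. In the central 150 bp the mean GC content of common regions was 49.8%. DNase I hotspots that overlapped both other lists had a median width of 762 bp. Another 61 values of the main comparisons moved by less than their interval, spread or 1.5 times. The order of mean GC content between the classes was the same under each alternative run. With the 50% overlap, however, DNase I unique and common regions came close, at 45.95% and 46.79%. As first merged they had 42.1% and 47.6%. Counts of regions in single windows moved in 15 cases, 14 with another window or without narrow hotspots and 1 with the 50% overlap. With hotspots within 500 bp of a TSS counted, all 10 members had a DNase I hotspot. The lists name no tag number, so the depth that limits each hotspot is unknown.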
